A study of Mus musculus and Homo sapiens with 27 samples.

Results

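The respiratory chain and the ATP synthase were represented on the human lymphochip by 18 of its 4604 named genes. A gene was taken when its single symbol started with NDUF, SDH, UQCR or ATP5, or with COX and a digit from 4 to 8. This gave 5 genes of complex I, 1 of complex II, 3 of complex III, 3 of complex IV and 6 of complex V, on 29 spotted features. The rule reads symbols only, and it was chosen with earlier results of these data known.

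The lymphochip is a glass array of cDNA spots chosen for lymphocyte genes, and each array was hybridised with RNA of 2 cultures in different dyes. The cells were OCI-Ly7, a line from a human diffuse large B-cell lymphoma of the germinal-centre type. RNA of OCI-Ly7 cells expressing human IRF4 from the Vxy vector was labelled with Cy5, at day 2 (1 array), day 3 (2 arrays, repeat 1 and repeat 2) and day 5 (1 array). RNA of OCI-Ly7 cells with the empty Vxypuro vector was labelled with Cy3 on the same arrays, and the labels give no day for it. All cultures were of 1 line, and the day 2 and day 5 arrays have no repeat. The other 23 of the 27 arrays of the series were of splenic B cells of adult Balb-c mice, 12 from Irf4 KO (-/-) and 11 from Irf4 Het (-/+) mice. These cells were unstimulated (0 h) or had been treated with LPS, a bacterial lipopolysaccharide that activates B cells, for 24, 48 or 96 h, and each RNA was set against a pool of RNA from cell lines. IRF4 is a transcription factor that drives the change of activated B cells into antibody-secreting plasma cells, and the comparison asked which genes differ in a lymphoma line when IRF4 is expressed from a vector.

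The respiratory chain sits in the inner mitochondrial membrane. Complexes I and II take electrons from NADH and succinate, complex III passes them to cytochrome c and complex IV to oxygen, and complexes I, III and IV pump protons. Complex V, the ATP synthase, lets the protons flow back and makes ATP. Each complex has a core that carries the reaction, and most have many small accessory subunits encoded in the nucleus.

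All values are log2 ratios, with each array centred on its own median, so that 0 is the middle of the array and a value of 1 is 2-fold above it. The direction of the deposited ratio is not given in the sources used here. It was taken as IRF4 vector over empty vector, which is likely from the dyes in the labels, and the other direction would turn every sign below. Pearson's correlations between the 4 arrays over all 15246 features lay between 0.31 and 0.46, and Spearman's between 0.31 and 0.58. All arrays have 1 dye orientation, so a shared direction of the ratio cannot be told apart there from a shared dye bias. IRF4 itself did not settle the direction. Of its 4 features, 1 was above 0 on every array, at 0.60 at day 2, 0.64 and 0.86 at day 3 and 0.67 at day 5. The other 3 features were above 0 only on the day 3 repeat 1 array, and the mean of the 4 features was -0.03 ± 0.47 (SD, n = 4; limma adjusted p = 0.964), or -0.26 without that array. Among the 6 measured plasma cell markers 4 were above 0 on all arrays, while SDC1 and MZB1 had means of -0.08 and -0.23. The highest was TNFRSF17, the receptor BCMA, at 3.36 (limma adjusted p = 0.0455). That call was lost without day 3 repeat 1 (3.19, limma adjusted p = 0.149), and 0 genes were called higher when any 1 of the 4 arrays was left out. Ratios cannot show whether a marker is present. The measured markers of other cells had means from -1.04 to -0.12 for 8 T and NK cell genes, from -1.30 to 0.66 for 4 myeloid genes and from -1.86 to 1.05 for 6 B-cell genes. These ranges without day 3 repeat 1 were from -1.36 to -0.24, from -1.54 to 1.06 and from -2.09 to 0.72. Their part in the results below was not tested.

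The day 3 repeat 1 array stood apart. It was the highest of the 4 arrays for 16 of the 18 genes, against 42.1% of all genes, and the median of the 18 genes was 1.75 on it. That median was 0.26 at day 2, 0.33 on the day 3 repeat 2 array and 0.40 at day 5. For 7 of the 18 genes it lay far from the other arrays by Dixon's ratio at 95%, as it did for 269 of all 4604 genes. Any 1 of the 4 arrays did so for 10.4% of all genes. The means of the 18 genes are therefore given with this array and without it, as are the counts and medians of the gene lists.

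Most of the 18 genes lay above the middle of the array in IRF4-vector cells, but no single gene passed the test. The mean over the 4 arrays was above 0 for 16 genes, against 43.3% of all genes, and the median of the 18 means was 0.56 against -0.14 for all genes. Without the day 3 repeat 1 array, 12 means were above 0 (40.1% of all genes) and the median was 0.34 against -0.21. By limma with Benjamini-Hochberg adjustment over all 4604 genes, 0 of 18 genes passed an adjusted p of 0.05 in either direction, where 0.0434% of all genes were called higher and 0.0652% lower. At an unadjusted p under 0.05, 7 of 18 genes were higher (7.91% of all genes) and 1 was lower (16% of all genes). All 4 arrays were above 0 for 11 of 18 genes (17% of all genes) and below 0 for none (21% of all genes).

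**Figure D1:**
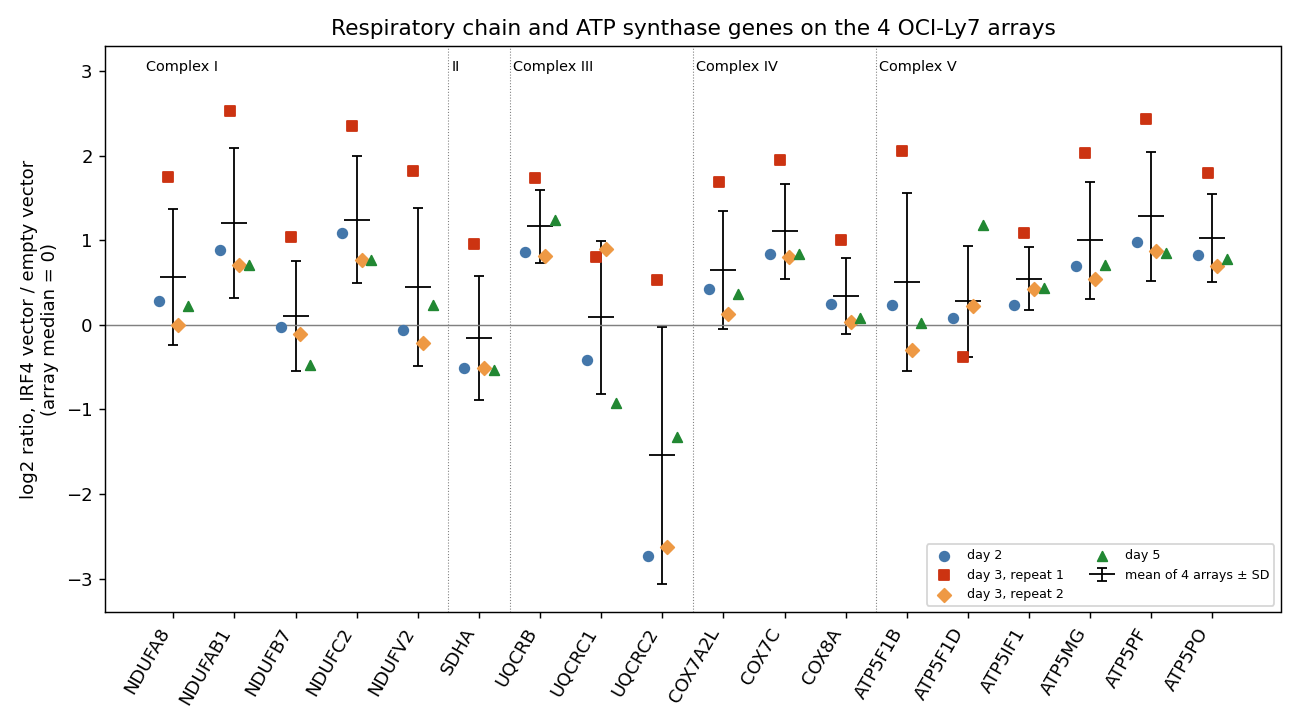
Log2 ratio of IRF4 vector over empty vector (y axis, array median at 0) for the 18 genes (x axis, grouped by complex). Symbols are single arrays, and black bars are the mean ± SD of the 4 arrays. The day 3 repeat 1 array (red squares) is the highest for 16 of 18 genes, and UQCRC2 has the lowest mean at -1.54.

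Complex I, the NADH dehydrogenase, had 5 measured genes, all with a mean above 0 and a median of 0.56 (3 of 5 and 0.17 without the day 3 repeat 1 array). NDUFC2, a small accessory subunit of the membrane arm, measured 1.09 at day 2, 2.36 and 0.77 on the day 3 arrays (repeat 1 and repeat 2) and 0.77 at day 5. Its mean was 1.25 ± 0.76 (SD, n = 4; limma adjusted p = 0.148), or 0.88 without day 3 repeat 1. NDUFAB1, which is both an accessory subunit and the mitochondrial acyl carrier protein, lay at 0.89, 2.53, 0.71 and 0.70 in the same order of arrays. It averaged 1.21 ± 0.89 (SD, n = 4; limma adjusted p = 0.163), or 0.77 without day 3 repeat 1, and its 2 features had means of 1.16 and 1.26. Both genes were thus above 0 on every array, with 3 arrays close together and day 3 repeat 1 well above them.

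The other 3 genes of complex I lay near 0 on the arrays other than day 3 repeat 1. NDUFA8, an accessory subunit, gave 0.28 at day 2, 1.75 and 0.002 at day 3 and 0.22 at day 5. NDUFV2, an iron-sulphur core subunit of the NADH-oxidising arm, gave -0.06 at day 2, 1.82 and -0.22 at day 3 and 0.24 at day 5. For NDUFB7, another accessory subunit, the values were -0.02 at day 2, 1.04 and -0.11 at day 3 and -0.47 at day 5. Their means of 0.56, 0.44 and 0.11 had adjusted p of 0.368, 0.497 and 0.848 by limma. Without day 3 repeat 1 they were 0.17, -0.01 and -0.20, so that NDUFV2 and NDUFB7 changed sign, and NDUFB7 did so too with the deposited values left uncentred (-0.08).

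Complex II, the succinate dehydrogenase, was represented by SDHA, its flavoprotein, which oxidises succinate. SDHA lay at -0.51 at day 2, 0.95 and -0.51 on the day 3 arrays and -0.54 at day 5. Its mean was -0.15 ± 0.74 (SD, n = 4; limma adjusted p = 0.794), and -0.52 ± 0.02 (SD, n = 3; limma adjusted p = 0.199) without day 3 repeat 1. The 2 SDHA features disagreed, with means of -0.59 and 0.29. One of them measured -0.77, 0.61, -0.95 and -1.26 at day 2, day 3 repeat 1, day 3 repeat 2 and day 5, and the other -0.26, 1.30, -0.07 and 0.18. From day 2 over day 3 repeat 2 to day 5 the first fell and the other rose. The SD of 0.02 belongs to their average and does not show that the arrays agreed. The value of SDHA is therefore uncertain in sign.

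Complex III, the cytochrome bc1 complex, had 1 gene high on every array, 1 far below 0 on 3 of 4 arrays and 1 near 0. UQCRB, a small subunit that binds ubiquinone, measured 0.86 at day 2, 1.74 and 0.81 on the day 3 arrays and 1.25 at day 5. It averaged 1.16 ± 0.43 (SD, n = 4; limma adjusted p = 0.132), the lowest adjusted p among the 18 genes. The mean without day 3 repeat 1 was 0.97 (limma adjusted p = 0.173), and UQCRC2 then had the lowest adjusted p. On each of the 4 arrays UQCRB stood between percentile 90.9 and percentile 95.3 of all genes.

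UQCRC2, one of the large core proteins on the matrix side, was the opposite case. It lay at -2.74 at day 2, 0.53 and -2.63 on the day 3 arrays and -1.32 at day 5, with a mean of -1.54 ± 1.52 (SD, n = 4; limma adjusted p = 0.191). Without day 3 repeat 1 the mean was -2.23 ± 0.79 (SD, n = 3), a linear ratio of 0.213, with a limma adjusted p of 0.162. It was the gene with the lowest mean and the widest spread of the 18, and it rests on 1 feature. With arrays weighted by limma for their quality, UQCRC2 was the only 1 of the 18 genes to pass the threshold, at -2.27 (adjusted p = 0.0420), where 5.69% of all genes were called, so 1 of 18 is near the share over all genes. UQCRC1, its partner core protein, scattered around 0, at -0.41 at day 2, 0.80 and 0.89 at day 3 and -0.93 at day 5, with a mean of 0.09 ± 0.90 (SD, n = 4; limma adjusted p = 0.897). Its sign turned without either day 3 array, to -0.15 without repeat 1 and -0.18 without repeat 2, and with the deposited values left uncentred (-0.10). The interval of the mean ran from -0.89 to 1.06 (95%), so a change in either direction could not be read from it.

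Complex IV, the cytochrome c oxidase, had 3 measured genes, each above 0 on all 4 arrays. COX7C, a small nuclear-encoded subunit, measured 0.84 at day 2, 1.95 and 0.81 at day 3 and 0.84 at day 5, an average of 1.11 ± 0.56 (SD, n = 4; limma adjusted p = 0.146). Without day 3 repeat 1 the mean was 0.83 ± 0.02 (SD, n = 3; limma adjusted p = 0.174). Its 3 features had means from 0.97 to 1.29. COX7A2L, a relative of subunit 7a that takes part in the assembly of chain supercomplexes, lay at 0.43, 1.69, 0.13 and 0.36 at day 2, day 3 repeat 1, day 3 repeat 2 and day 5. Its mean was 0.65 (limma adjusted p = 0.283), and 0.31 without day 3 repeat 1. COX8A, the smallest kind of oxidase subunit, lay at 0.25, 1.01, 0.04 and 0.08 in that order. Its mean was 0.34 (limma adjusted p = 0.467), and 0.12 without day 3 repeat 1. The median of the complex was 0.65, and 0.31 without day 3 repeat 1.

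Complex V had 6 measured genes, 6 with a mean above 0 and 4 of them above 0 on all arrays, with a median of 0.77 (0.57 and 5 of 6 means above 0 without day 3 repeat 1). ATP5PF, coupling factor 6 of the peripheral stalk, had the highest mean of the 18 genes over the 4 arrays, and the second after UQCRB without day 3 repeat 1. It measured 0.98 at day 2, 2.43 and 0.87 at day 3 and 0.85 at day 5, an average of 1.28 ± 0.77 (SD, n = 4; limma adjusted p = 0.146) or 2.43-fold. Without day 3 repeat 1 it lay at 0.90 ± 0.07 (SD, n = 3; limma adjusted p = 0.173), or 1.87-fold. Its 3 features agreed, with means of 1.12 to 1.43.

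ATP5PO, the oligomycin sensitivity-conferring protein that joins the peripheral stalk to the catalytic head, gave 0.83 at day 2, 1.80 and 0.70 at day 3 and 0.78 at day 5 (mean 1.02 ± 0.52, SD, n = 4; limma adjusted p = 0.155; 0.77 without day 3 repeat 1). ATP5MG, subunit g of the membrane part, gave 0.70 at day 2, 2.04 and 0.55 at day 3 and 0.71 at day 5 (mean 1.00 ± 0.70, SD, n = 4; limma adjusted p = 0.173; 0.65 without day 3 repeat 1). Both were above 0 on every array. ATP5IF1, which inhibits ATP hydrolysis by the enzyme and is no part of its working core, lay at 0.24, 1.09, 0.43 and 0.44 at day 2, day 3 repeat 1, day 3 repeat 2 and day 5. It averaged 0.55 ± 0.37 (SD, n = 4; limma adjusted p = 0.267), and 0.37 without day 3 repeat 1.

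The catalytic and central stalk genes of the ATP synthase were not above 0 on every array. ATP5F1B, the catalytic beta subunit, measured 0.24 at day 2, 2.06 and -0.30 at day 3 and 0.02 at day 5. It averaged 0.51 ± 1.06 (SD, n = 4; limma adjusted p = 0.480), but -0.01 ± 0.27 (SD, n = 3) without day 3 repeat 1. Its 3 features had means of 0.43 to 0.61, so that 1 array and not 1 feature set its mean. ATP5F1D, the delta subunit of the central stalk, was the only gene of the 18 with its lowest value on day 3 repeat 1. Its values were 0.08 at day 2, -0.38 and 0.22 at day 3 and 1.18 at day 5, a mean of 0.28 ± 0.65 (SD, n = 4; limma adjusted p = 0.609) that was 0.49 without day 3 repeat 1, and it changed sign without day 5, at -0.02.

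**Figure D2:**
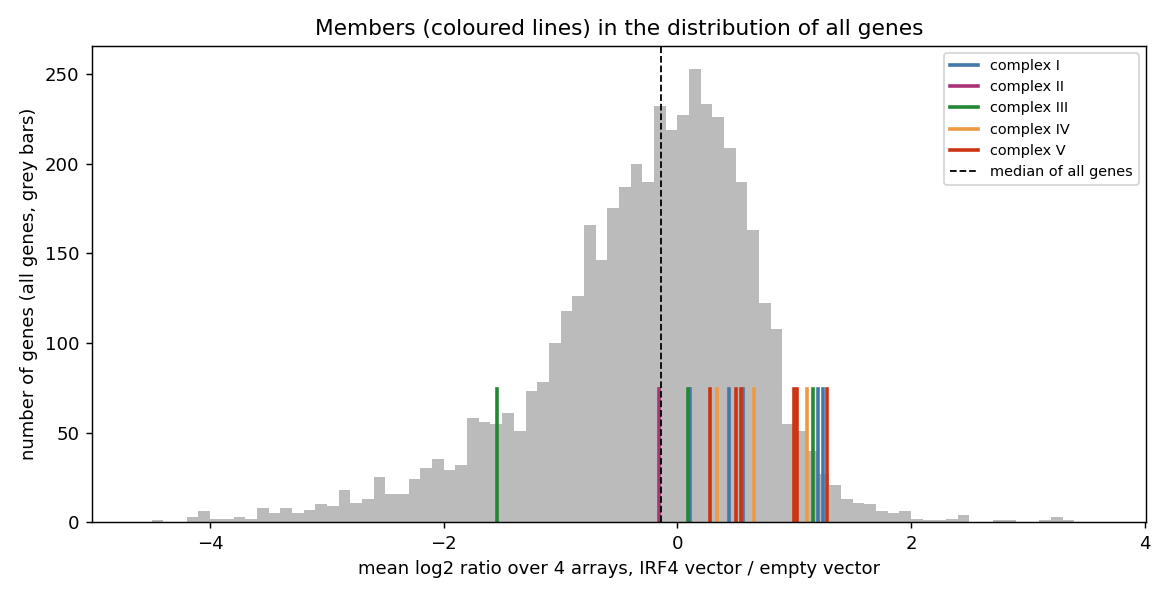
Distribution of the mean log2 ratio over the 4 arrays for all 4604 genes (grey bars, x axis in log2 units, y axis number of genes), with the 18 genes as lines coloured by complex. The lines of ATP5PF, NDUFC2, NDUFAB1, UQCRB and COX7C lie between 1.11 and 1.28, on the right flank, and UQCRC2 lies at -1.54 on the left.

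The genes can also be grouped by the place of their product in its complex, a grouping made after the values were seen and therefore given without a test. The 11 small, accessory or peripheral subunits (NDUFA8, NDUFAB1, NDUFB7, NDUFC2, UQCRB, COX7A2L, COX7C, COX8A, ATP5PF, ATP5PO and ATP5MG) had a median of 1.02, and 0.77 without day 3 repeat 1. All 11 had a mean above 0 (10 without that array), and 10 were above 0 on all 4 arrays. The 6 core, catalytic or central stalk subunits (NDUFV2, SDHA, UQCRC1, UQCRC2, ATP5F1B and ATP5F1D) had a median of 0.18, and -0.08 without that array. Of these 6, 4 had a mean above 0 (1 without it), and 0 of 6 were above 0 on all arrays. Over all genes, 43.3% of means were above 0 (40.1% without that array), and 17% of genes were above 0 on all 4 arrays. The 0 of 6 is therefore near the share over all genes. UQCRC1 and UQCRC2 were placed in the second group by their name as core proteins, not by a part in electron transfer. The ranges overlapped, from 0.11 to 1.28 for the first and from -1.54 to 0.51 for the second, whose low end was UQCRC2. ATP5IF1 belongs to neither.

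A group of 7 genes lay high on every array, NDUFAB1, NDUFC2, UQCRB, COX7C, ATP5MG, ATP5PF and ATP5PO. Their means spanned 1.00 to 1.28, percentiles 95.5 to 97.9 of all genes, and 0.65 to 0.97 without day 3 repeat 1. They are the genes with an unadjusted p under 0.05 in the higher direction, so these levels only describe them. On the day 5 array, the one with the widest spread of values, they stood between percentile 80.4 and percentile 90.9. Their intervals overlapped widely, and no order among them can be read. ATP5PF ran from 0.40 to 2.17 and ATP5MG from 0.16 to 1.84 (95% intervals of the mean).

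**Figure D3:**
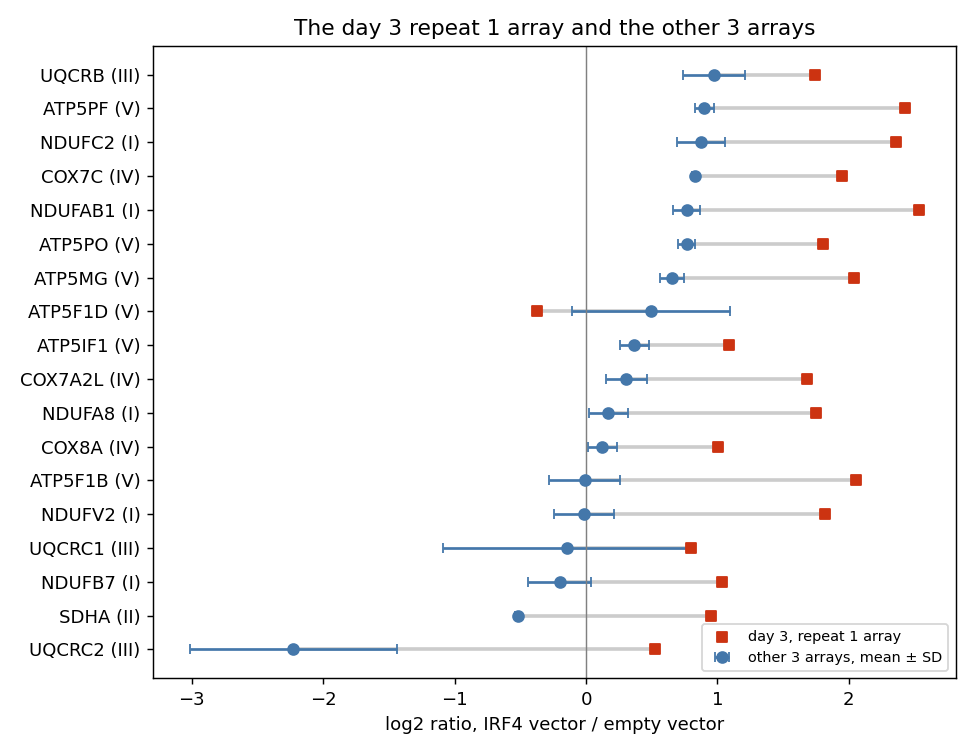
Log2 ratio (x axis) of the 18 genes (rows, complex in brackets) on the day 3 repeat 1 array (red squares) and as the mean ± SD of the other 3 arrays (blue circles). For COX7C the other 3 arrays lay at 0.83 ± 0.02 and the day 3 repeat 1 array at 1.95, and ATP5F1D alone has the red square clearly to the left.

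Without the day 3 repeat 1 array, 12 of 18 genes were above 0 on all 3 remaining arrays (23.5% of all genes) and 3 were below 0 on all of them (33.3%), NDUFB7, SDHA and UQCRC2. At an unadjusted p under 0.05 there were 9 genes (25% of all genes), the 7 high ones together with SDHA and UQCRC2, and 0 passed after limma's adjustment, as for all genes. SDHA is there as the average of 2 features that disagreed. The ranking of the 18 genes was shared by the arrays to different degrees. Over these genes, which share the array, the spots and the pair of cultures, Spearman's rho was 0.68 between day 2 and day 3 repeat 2 and 0.76 between day 2 and day 5. Between day 3 repeat 2 and day 5 it was 0.63. Of day 3 repeat 1 it was 0.75 with day 2, 0.43 with day 5 and 0.36 with day 3 repeat 2. Its ranking of the 18 genes was thus closest to that of day 2.

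Of the 18 genes 8 had 2 or 3 features, and the median range between the feature means of such a gene was 0.21 log2 units, against 0.86 over all 2015 genes with 2 or 3 features. This difference was not tested, and SDHA had the widest range of the 8 at 0.88. The other 10 genes, UQCRC1, UQCRC2 and ATP5F1D among them, rest on 1 feature each. Spotted cDNA can also bind transcripts of close relatives, so signals of genes with expressed pseudogenes cannot be told apart from theirs.

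The days were compared as a slope of the log2 ratio per day over the 4 arrays. By limma 0 of 18 genes had a slope past the threshold, as did 0% of all genes, and 0 of 18 had an unadjusted p under 0.05 (12.3% of all genes). The slope was above 0 for 5 of 18 genes (44.9% of all genes), with a median of -0.08 per day. The slope was above 0 for 7 of 18 genes (48.4% of all genes) without day 3 repeat 1, with a median of -0.01 per day, and 0 of 18 passed by limma (0% of all genes) or had an unadjusted p under 0.05 (14.9%). The highest slope was that of ATP5F1D, 0.42 ± 0.28 per day (SE, limma adjusted p = 0.669), and the lowest that of UQCRC1, -0.32 ± 0.36 per day (SE, limma adjusted p = 0.875). Both slopes turned without the day 5 array. Apart from ATP5F1D and UQCRC1, the difference between the repeats of day 3 exceeded that between day 2 and day 5 for 16 of 18 genes. These are the same 16 genes for which day 3 repeat 1 was the highest array, so the count largely restates that array. The share over all genes was not counted, and nothing about the days can be read from it.

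Other genes of mitochondrial energy metabolism served as a frame. Among 12 genes of the tricarboxylic acid cycle 7 had a mean above 0 and 5 below, with a median of 0.01 and 0 past the threshold by limma. DLD, the dihydrolipoyl dehydrogenase shared by several complexes, was the highest at 0.89 (limma adjusted p = 0.159), and OGDH, of the oxoglutarate dehydrogenase, the lowest at -2.15 (limma adjusted p = 0.146). They lay at 0.77 and -2.49 without day 3 repeat 1, and 5 of 12 means were above 0. Among 12 mitochondrial ribosomal proteins 7 were above 0 and 0 past the threshold, with a median of 0.15, from MRPL28 at -1.24 to MRPL19 at 0.88 (5 above 0, from -1.66 to 0.81, without that array). Of 5 other chain parts and assembly factors 4 were above 0, with a median of 0.36, the highest being the electron carrier CYCS (0.46) and the lowest SURF1, an assembly factor of complex IV (-0.25). The day 3 repeat 1 array set both that count and the place of CYCS, which lay at 2.09 on it and at -0.08 without it, where 2 of 5 genes were above 0. Of the 5 genes 0 passed.

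The 6 antioxidant enzymes had a median of -0.05 with 2 above 0, SOD2, the mitochondrial superoxide dismutase, being the highest at 0.70 and CAT the lowest at -0.37. The median was -0.31 with 1 above 0 without day 3 repeat 1, SOD2 at 0.57. Of 6 regulators of mitochondrial genes 5 were above 0, with a median of 0.19, MYC the highest at 0.82 (limma adjusted p = 0.216) and GABPB1 the lowest at -0.16. Only 2 of 6 were above 0 without day 3 repeat 1, NRF1 at 0.52 and MYC at 0.49, and the median was -0.09. The carriers were SLC25A5, an ADP/ATP exchanger, at 0.56, and UCP2 at 0.13, and without that array SLC25A5 lay at 0.21 and UCP2 turned to -0.05. Of these genes 0 passed. Among 16 glycolytic genes 8 were above 0 and 8 below, 0 past the threshold, from ALDOC at -1.69 to PFKL at 0.97 (5 above 0 without day 3 repeat 1). Without day 3 repeat 1 the medians were -0.31 for the tricarboxylic acid cycle, -0.07 for the mitochondrial ribosome, -0.08 for the other chain parts and -0.41 for glycolysis, against 0.34 for the 18 genes. These differences between lists were not tested. The array was also the highest of the 4 for 11 of 12 cycle genes, 9 of 12 mitochondrial ribosomal genes, 6 of 6 antioxidant enzymes and 12 of 16 glycolytic genes (42.1% of all genes). In the same order of lists, 9, 11, 6 and 11 genes were above 0 on it, against 48.3% of all genes. It was thus the highest array for most genes of these lists as well as of the respiratory chain, though some of them lay below 0 on it.

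**Figure D4:**
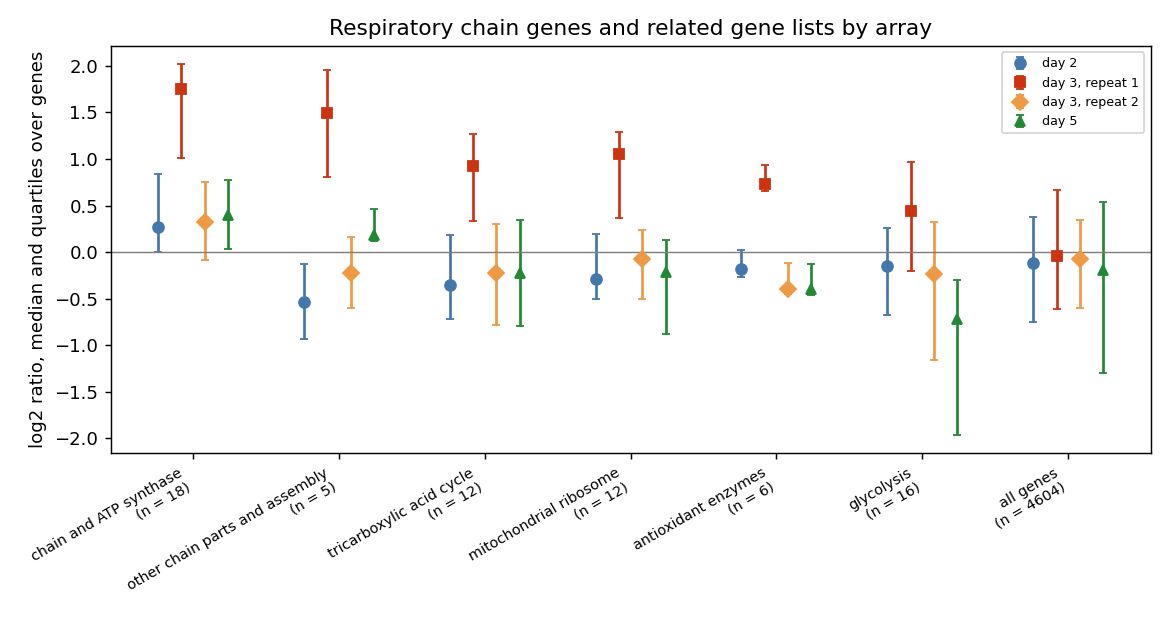
Median log2 ratio (symbols) with quartiles over the genes of each list (bars) on each of the 4 arrays, for the 18 respiratory chain and ATP synthase genes, 5 related lists and all 4604 genes. The 18 genes have medians of 0.26 to 0.40 on the arrays of day 2, day 3 repeat 2 and day 5. On day 3 repeat 1 their median is 1.75. The 5 related lists, glycolysis (0.44) among them, and all genes (-0.04) also have their highest median on that array.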

How the data were processed

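Each deposited human array held 15246 features, every one with a value, as log2 ratios between its dyes made by the authors. The sources used here do not give the log base, the direction, the scanner, background correction or normalization. The span of the values led to base 2. Symbols came from the platform annotation, with 10169 features of 1 symbol, 4 of several and 5073 of none. Each array was centred on its median, and features of 1 symbol were averaged to a gene. Array medians before centring lay between -0.26 and -0.08, and their standard deviations between 1.25 and 2.04. The median over all genes was -0.14 after centring and -0.33 before it. The ratio was tested against 0 with limma 3.58.1 in R 4.3.3, 2-sided, with Benjamini-Hochberg adjustment over 4604 genes, after a test on simulated data. With 1 dye orientation, dye bias and the control's own spread could not be separated, and the number of arrays limits the precision. The design text speaks of biological repeats without naming cultures, so p-values measure the spread between arrays, which may be technical. In the human ratio test the days were fitted together, so that spread also holds any difference between days. The design text calls the control non-transduced, and the labels, which were followed, call it an empty vector. Array values were to be given for genes with an unadjusted p under 0.05, with 4 arrays of 1 sign, or with the highest, lowest or most variable value of a complex. That rule left out only UQCRC1, which was added. Alternatives changed the centring, scaling, feature summary, array weights, days, database range, variance model and arrays included. The members and lists were chosen with earlier results of these data known. Single-channel signals were not analysed here.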

Additional observations from a re-analysis of the deposited data

Results flagged for a closer look

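In 7 of the 18 genes 1 array lay far from the other 3 by Dixon's ratio at 95%, and in each case it was the day 3 repeat 1 array, on the high side. Chance gives such a mark in about 5% of groups, and 10.4% of all genes had one on any array. For 269 of all 4604 genes the marked array was day 3 repeat 1, on either side. The log2 ratios on that array were 2.53 for NDUFAB1, 2.43 for ATP5PF, 2.04 for ATP5MG, 1.95 for COX7C, 1.80 for ATP5PO, 1.75 for NDUFA8 and 0.95 for SDHA. The means of the other 3 arrays were 0.77, 0.90, 0.65, 0.83, 0.77, 0.17 and -0.52 in the same order of genes. For SDHA those 3 arrays lay close together only in the average of 2 features that disagreed.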

How the results depend on the processing

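Of the 18 genes 12 kept the sign of their mean in every alternative run, up to 17 for a gene, and of these only UQCRC2 passed the threshold in 1 of them (array weights). The sign turned for ATP5F1B within the upper range of the authors' database numbers, which holds day 2 and day 3 repeat 2 (-0.029), and without day 3 repeat 1 (-0.011). It turned for NDUFV2 within the upper range (-0.14) and without day 3 repeat 1 (-0.014), for SDHA within the lower range, which holds day 3 repeat 1 and day 5 (0.21), and for ATP5F1D without day 5 (-0.024). NDUFB7 turned uncentred (-0.084), with array weights (-0.032), with the day 3 arrays averaged first (-0.0096), within the upper range (-0.064) and without day 3 repeat 1 (-0.20). UQCRC1 turned uncentred (-0.10), with day 3 averaged first (-0.16), within the lower range (-0.063) and in the fits without day 3 repeat 1 (-0.15) and without day 3 repeat 2 (-0.18), while those without day 2 (0.26) and without day 5 (0.43) kept the sign. Left-out ranges were -0.011 to 0.77 for ATP5F1B, -0.024 to 0.49 for ATP5F1D, -0.20 to 0.30 for NDUFB7 and -0.014 to 0.66 for NDUFV2. The 18 genes had 0 calls in 16 of 17 alternatives and 1 call with array weights. The number at an unadjusted p under 0.05 was 4 with only genes of 2 or more features, where 7 means lay above 0, 1 within the lower range, and 6 to 9 with 1 array left out. With 1 array left out, 12 to 16 means lay above 0 and the median of the 18 was 0.34 to 0.76. The median of complex III was 1.16 with only genes of 2 or more features, since UQCRB alone was left. Over all genes, 5 calls (2 higher, 3 lower) became 1 uncentred, 1 centred on named features, 94 after quantile normalization (21 higher, 73 lower), 1 with the median of features, 262 with array weights (81 higher, 181 lower), 0 with day 3 averaged, 0 with the range as a factor, 342 within the lower range (23 higher, 319 lower), 0 within the upper range, 0 with trend and robust empirical Bayes, and 0 to 1 with 1 array left out. The mean of IRF4 was 0.18 within the lower range and -0.26 to 0.072 with 1 array left out. Without 1 array, 0 to 277 genes had a slope past the threshold, 0 of them among the 18, and the slopes of ATP5F1D and UQCRC1 ran from -0.16 to 0.63 and from -0.89 to 1.26, with -0.16 and 1.26 without day 5. The causes were not tested. The human arrays have no replicate numbers to pair, since both RNAs share an array. In mouse, with the replicate number as a block, Ndufa1 at 96 h differed by -0.87 (limma adjusted p = 0.996) and kept its side of the threshold.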

Other observations

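The named mouse features held 1 gene of the respiratory chain, Ndufa1, an accessory subunit of complex I, on 2 features. B cells without Irf4 (Irf4-/-, KO) or with 1 intact copy (Irf4+/-, Het) were unstimulated (0 h) or treated with lipopolysaccharide, and the values are log2 ratios over a common pool, centred on the median of each array. At 96 h Ndufa1 lay at -1.14, -1.10 and -0.82 in KO cells, against -0.38, 0.12, -0.19 and 0.11 in Het cells. Over all mouse arrays the difference was -0.93 ± 0.66 (SE, limma adjusted p = 0.993), where 2.72% of 331 genes were called, and it lay between -1.03 and -0.86 with 1 of the 96 h arrays left out. The fitted spread comes from all times, and the wide Het group at 0 h takes part in it. At 0 h Ndufa1 lay at 0.37, -0.25 and -0.42 in KO cells, against -0.57, -4.83 and -0.91 in Het cells, a difference of 2.00 ± 0.71 (SE, limma adjusted p = 0.149). Het replicate 2, at -4.83, set that difference, which was 0.64 without it (limma adjusted p = 0.585). It was 2.77 (limma adjusted p = 0.0337) without Het replicate 1, 2.60 (limma adjusted p = 0.0247) without Het replicate 3, and between 1.77 and 2.16 with 1 KO array left out. At 24 h the difference was -0.24 ± 0.79 (SE, limma adjusted p = 0.907) and at 48 h -0.23 ± 0.79 (SE, limma adjusted p = 0.997), where 1 and 2 of the 3 KO arrays carry conflicting genotype labels and the titles were followed. Ndufa1 was looked at after the human results were known, and its fit was added then. Of the human genes NDUFA1 was not among the 18.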
